A study of Mus musculus with 8 samples.

Results

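The Cdkn2a and Cdkn2b block of mouse chromosome 4 was taken as all consensus regions between positions 89000000 and 91500000 (build mm10), and it held 35 of the 57417 regions in the series. The interval contains the genes Mtap, Cdkn2a, Cdkn2b, Dmrta1 and Elavl2. It was selected on the counts themselves, because long runs of its regions had no or almost no counts in some lines, so the counts and fold changes of these 35 regions are given as a description and not as a test. Open chromatin was measured by ATAC-seq, in which the Tn5 transposase cuts and tags accessible DNA, with 2 libraries for each of 4 lines. All lines came from PB3, mouse breast cancer cells whose cell type label is Er-/Pr-/Her2-. PB3-ERI-R, PB3-PAC-R and PB3-VIN-R are derivatives resistant to eribulin (spelled "Erubilin" in the sample labels), paclitaxel and vinorelbine, drugs that act on microtubules, and PB3-Parental is the untreated line. Per the labels' protocols, resistant clones were raised with 300, 500 and 800 nM of the drug. The sources used here do not say whether a resistant line is a single clone, or whether its libraries came from separate cultures. The p-values therefore reflect the spread between these libraries alone, which may be technical.

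Cdkn2a encodes 2 unrelated proteins from alternative starts that share later exons. Ink4a inhibits the kinases Cdk4 and Cdk6, which drive cells out of G1 by phosphorylating the retinoblastoma protein, and Arf, whose leading exon lies farther upstream, inhibits Mdm2 and so stabilises p53. The neighbouring gene Cdkn2b encodes Ink4b, another inhibitor of Cdk4 and Cdk6. The locus is kept silent in many dividing cells by Polycomb complexes, and in human cancers CDKN2A is often lost by deletion, frequently together with MTAP. Mtap, methylthioadenosine phosphorylase, starts the methionine salvage pathway, Dmrta1 is a transcription factor with a DM domain, and Elavl2 is an RNA-binding protein of neurons. ATAC-seq counts alone do not tell DNA that is missing from DNA that is present and closed. Which of them lies behind a count of 0 in this block was not tested.

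The promoters at both Cdkn2a starts and at starts of Cdkn2b, Mtap and Elavl2 are shown because the counts around these starts are the base of what follows, although the downstream Cdkn2a promoter lies in no region. For Elavl2, 1 of 6 listed starts is shown, the one whose promoter lies wholly in a region. Sequences are the RefSeq promoters of GRCm38.p6, 250 bases before and 50 after each start, 5′ to 3′ on the strand of the gene. Capitals mark GGGCGG, the GC box, or its complement CCGCCC.
Cdkn2a upstream start, chr4:89294570-89294869, minus strand: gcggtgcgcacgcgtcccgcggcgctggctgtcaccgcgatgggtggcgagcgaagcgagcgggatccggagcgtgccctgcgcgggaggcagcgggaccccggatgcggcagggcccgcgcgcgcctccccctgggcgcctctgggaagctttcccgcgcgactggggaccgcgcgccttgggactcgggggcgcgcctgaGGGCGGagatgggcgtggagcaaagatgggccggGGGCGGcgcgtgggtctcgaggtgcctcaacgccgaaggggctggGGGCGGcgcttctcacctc
Cdkn2a downstream start, chr4:89282143-89282442, minus strand: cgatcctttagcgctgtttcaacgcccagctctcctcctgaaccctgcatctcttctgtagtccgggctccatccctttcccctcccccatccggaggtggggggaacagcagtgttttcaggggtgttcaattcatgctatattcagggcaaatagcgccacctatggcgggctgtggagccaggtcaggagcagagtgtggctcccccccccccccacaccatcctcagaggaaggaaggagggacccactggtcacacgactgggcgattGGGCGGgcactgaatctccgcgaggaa
Cdkn2b, chr4:89310983-89311282, minus strand: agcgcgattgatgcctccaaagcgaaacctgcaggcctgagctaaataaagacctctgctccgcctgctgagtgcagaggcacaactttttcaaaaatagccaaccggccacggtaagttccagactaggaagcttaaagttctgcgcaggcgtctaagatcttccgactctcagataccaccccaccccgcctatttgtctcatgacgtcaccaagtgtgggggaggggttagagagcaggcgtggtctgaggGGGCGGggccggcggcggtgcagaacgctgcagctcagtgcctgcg
Mtap, chr4:89137120-89137419, plus strand: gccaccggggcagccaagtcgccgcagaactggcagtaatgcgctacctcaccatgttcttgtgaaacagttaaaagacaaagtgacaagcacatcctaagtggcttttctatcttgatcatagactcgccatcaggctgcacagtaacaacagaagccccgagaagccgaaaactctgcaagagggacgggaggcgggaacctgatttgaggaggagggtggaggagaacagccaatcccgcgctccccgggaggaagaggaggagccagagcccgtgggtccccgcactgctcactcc
Elavl2, chr4:91376421-91376720, minus strand: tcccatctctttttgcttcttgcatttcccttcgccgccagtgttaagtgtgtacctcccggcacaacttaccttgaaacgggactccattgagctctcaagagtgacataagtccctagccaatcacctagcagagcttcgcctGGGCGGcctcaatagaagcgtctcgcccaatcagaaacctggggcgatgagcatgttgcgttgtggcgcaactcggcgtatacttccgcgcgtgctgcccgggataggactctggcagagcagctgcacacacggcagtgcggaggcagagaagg

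The upstream Cdkn2a promoter held 45 CG dinucleotides, more than 98.1% of the 32851 promoters in the RefSeq table, whose median was 7. It held 3 copies of GGGCGG, counted on both strands. The Cdkn2b promoter held 18 CG dinucleotides, the Mtap promoter 14, the Elavl2 promoter 19 and the downstream Cdkn2a promoter 12. GGGCGG occurred once in the downstream Cdkn2a, the Cdkn2b and the Elavl2 promoters and had no match in the Mtap promoter, and it was present in 35.7% of all promoters. CCAAT, also read on both strands, matched in the downstream Cdkn2a, the Mtap and the Elavl2 promoters, against 37.4% of all promoters. The E-box pattern CANNTG matched in the Cdkn2b and Elavl2 promoters, against 72.3% of all promoters, and the AP-1 pattern TGANTCA, found in 7.81% of all promoters, had no match in the printed sequences. Matches of different patterns could overlap, and a match describes letters, not binding. All 300 bases of the upstream Cdkn2a, the Mtap and the Elavl2 promoters and 266 bases of the Cdkn2b promoter lay inside a consensus region. The downstream Cdkn2a promoter, the Dmrta1 promoter and 4 of the 6 Elavl2 promoters lay in none, so accessibility at those starts was not measured by these regions.

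Before the results on the block, the libraries themselves are described. They held 10521964 to 24052237 counts over all regions, deepest in PB3-VIN-R, and 3 counts, the floor used for a count of 0, corresponded to 0.114 to 0.332 CPM (counts scaled by the library size after TMM normalization) in a library. Over the whole genome the libraries of PB3-ERI-R were unlike the rest: 41920 regions were called against PB3-Parental, whereas PB3-PAC-R had 49 calls and PB3-VIN-R 389 (edgeR's quasi-likelihood test, Benjamini-Hochberg adjusted p under 0.05). As a check of the label, the summed regions of Epcam, an epithelial adhesion gene, averaged 171 ± 5.26 CPM in PB3-ERI-R, 37.8 ± 3.67 in PB3-PAC-R, 36.7 ± 0.83 in PB3-VIN-R and 42.1 ± 8.69 in PB3-Parental (SD, n = 2 each). All 6 mammary epithelial markers had counts, and 4 of them were called higher in PB3-ERI-R against PB3-Parental and 0 lower. Of all gene loci, 58.5% were called in that comparison. Krt8 (log2 fold change 0.19) and Krt18 (-0.23) were not called. Of the receptor genes named in the label, Esr1 and Erbb2 had accessible regions and Pgr had none within 50 kb, and accessibility is not expression of the receptor. In PB3-ERI-R against PB3-Parental, Esr1 was called lower (log2 fold change -0.82) and Erbb2 higher (0.88). Of 8 markers of endothelium, macrophages and adipocytes, 6 had regions, and 5 of them were called lower in PB3-ERI-R and 0 higher, where 58.5% of all 14791 gene loci were called against PB3-Parental, 4499 lower and 4149 higher. It was lower than PB3-Parental at the endothelial gene Kdr (3.28 ± 0.0397 against 33.5 ± 7.63 CPM, SD, n = 2 each) and the adipocyte gene Pparg (26.5 ± 2.22 against 129 ± 13.3 CPM), and the part of this in the counts of the block was not tested.

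The region over the upstream Cdkn2a start (chr4:89294304-89294954, in the gene and its promoter) had 314 and 316 counts in the PB3-ERI-R libraries. It had 0 counts in both libraries of PB3-PAC-R, of PB3-VIN-R and of PB3-Parental. The line resistant to eribulin thus had an open Arf start where the line it is labelled as derived from gave no count. The PB3-ERI-R level was 32.1 ± 4.12 CPM (SD, n = 2), which was at least 327-fold higher than in PB3-PAC-R, at least 533-fold higher than in PB3-VIN-R and at least 336-fold higher than in PB3-Parental, with the floor of 3 counts set over the 2 libraries of the line at 0. These bounds differ because the sequencing depth of the lines differs. A neighbouring region (chr4:89295023-89295388), 404 bases upstream of the gene and inside the noncoding gene Gm12610, had 110 and 76 counts in PB3-ERI-R and 0 in the 6 other libraries.

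The Cdkn2b region (chr4:89310517-89311248) reaches from the promoter into the gene and also overlaps Gm12610. It had 611 and 460 counts in PB3-ERI-R and 0 in each of the 6 other libraries. With 53.8 ± 4.11 CPM (SD, n = 2), PB3-ERI-R was at least 555-fold higher than PB3-PAC-R, at least 906-fold higher than PB3-VIN-R and at least 571-fold higher than PB3-Parental. Per kb of region, its PB3-ERI-R level of 73.6 CPM was higher than in 78.1% of all regions that held a PB3-ERI-R peak, and the Cdkn2a region, at 49.3 CPM per kb, was higher than 49.6% of them. The authors' PB3-ERI-R peak list gives a fold enrichment of 22.6 over background at the Cdkn2b region and of 16.2 at the Cdkn2a region.

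**Figure D1:**
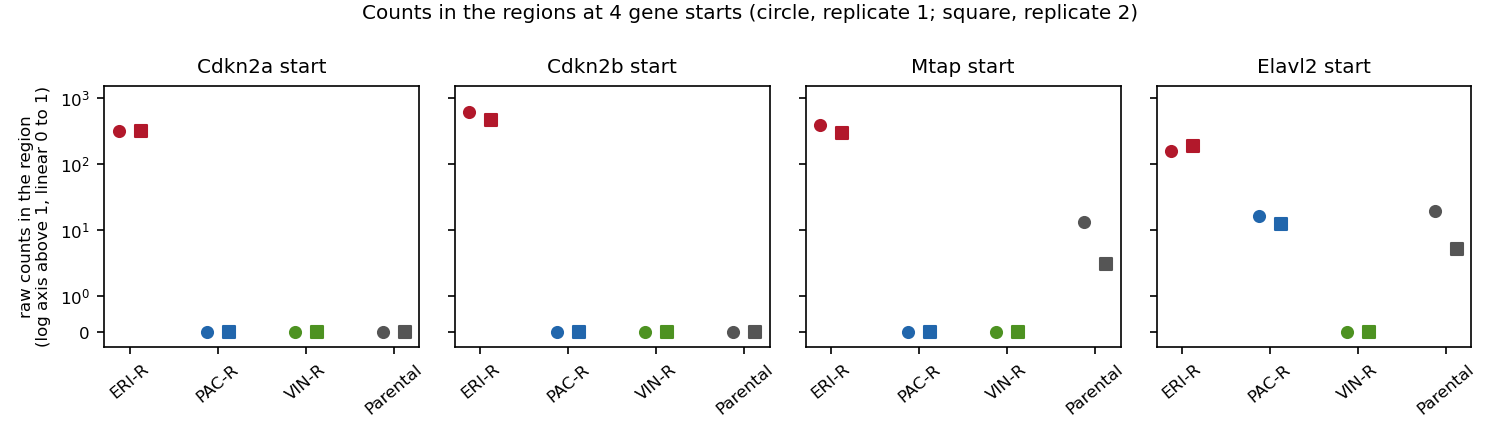
Raw counts (y axis, logarithmic over 1 count and linear from 0 to 1) in the consensus regions at the starts of Cdkn2a, Cdkn2b, Mtap and Elavl2, for both libraries of PB3-ERI-R, PB3-PAC-R, PB3-VIN-R and PB3-Parental. At Cdkn2a and Cdkn2b only PB3-ERI-R is off 0, while Mtap keeps 13 and 3 counts in PB3-Parental and Elavl2 keeps counts in PB3-PAC-R and PB3-Parental.

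Mtap differed from Cdkn2a in the parental line. The region over its start (chr4:89137013-89137651) had 390 and 292 counts in PB3-ERI-R, 0 in both PB3-PAC-R libraries, 0 in both PB3-VIN-R libraries, and 13 and 3 in PB3-Parental. PB3-ERI-R was 68.1-fold higher than PB3-Parental (95% exact counting interval 41.6 to 120), at least 354-fold higher than PB3-PAC-R and at least 577-fold higher than PB3-VIN-R. Intervals and floors cover counting error only. A region inside the gene (chr4:89145471-89145675) had 92 and 75 counts in PB3-ERI-R, while PB3-PAC-R had 0, PB3-VIN-R 0 and 1, and PB3-Parental 5 and 1. The region before the start (chr4:89128152-89128381) had 75 and 77 counts in PB3-ERI-R, 0 in both PB3-PAC-R and both PB3-VIN-R libraries, and 5 and 1 in PB3-Parental. Over these 3 regions the sums were 1001 in PB3-ERI-R, 0 in PB3-PAC-R, 1 in PB3-VIN-R and 28 in PB3-Parental. The parental counts came mostly from a single library, with 23 in replicate 1 and 5 in replicate 2. At the Mtap start the fold over the parental line was accordingly 44.0 against replicate 1 alone (25.6 to 83.1) and 173 against replicate 2 alone (58.8 to 839).

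Elavl2, at the far end of the block, had counts in a pattern of its own. Its region (chr4:91376389-91376744), over a start inside the gene, had 155 and 185 counts in PB3-ERI-R, while PB3-PAC-R had 16 and 12, both PB3-VIN-R libraries had 0, and PB3-Parental had 19 and 5. PB3-ERI-R was 18.9-fold higher than PB3-PAC-R (12.8 to 28.9), at least 288-fold higher than PB3-VIN-R and 22.6-fold higher than PB3-Parental (15 to 35.8). That last fold was 15 against parental replicate 1 alone and 51.6 against replicate 2 alone. Its fold enrichment in the authors' PB3-ERI-R list, 31.2, was the highest of the block. The PB3-PAC-R and PB3-Parental levels, 0.905 ± 0.117 and 0.738 ± 0.573 CPM (SD, n = 2 each), overlapped. Dmrta1 (chr4:89688198-89694766) had no consensus region, the nearest lying 160 kb away. No region lay between chr4:89528288 and the Elavl2 region, so the counts say nothing about the interval in between.

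In chromosomal order the 35 regions fell into a proximal part of 14 regions (chr4:89001391-89105781), with counts in every library, and a distal part of 21 regions (chr4:89128152-91376744), in which PB3-ERI-R was the only line with a peak. The bound between the parts was set by PB3-VIN-R: each distal region had at most 1 count over both PB3-VIN-R libraries. The proximal part lies over and near the noncoding genes Wincr1 and Gm12602, before Mtap. Summed over it, accessibility was 221 ± 15.2 CPM in PB3-ERI-R, 265 ± 27.6 in PB3-PAC-R, 240 ± 3.02 in PB3-VIN-R and 257 ± 39.1 in PB3-Parental (SD, n = 2 each). The last proximal region (chr4:89105508-89105781), 31.6 kb from Mtap, had 47 and 60 counts in PB3-ERI-R, while PB3-PAC-R had 77 and 84, PB3-VIN-R 150 and 137, and PB3-Parental 102 and 72. Its levels, 5.5, 5.25, 5.71 and 5.47 CPM, were nearly equal in the 4 lines. The next region, 22.4 kb farther on, is the region before the Mtap start described with that gene, where both PB3-PAC-R and both PB3-VIN-R libraries had 0.

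**Figure D2:**
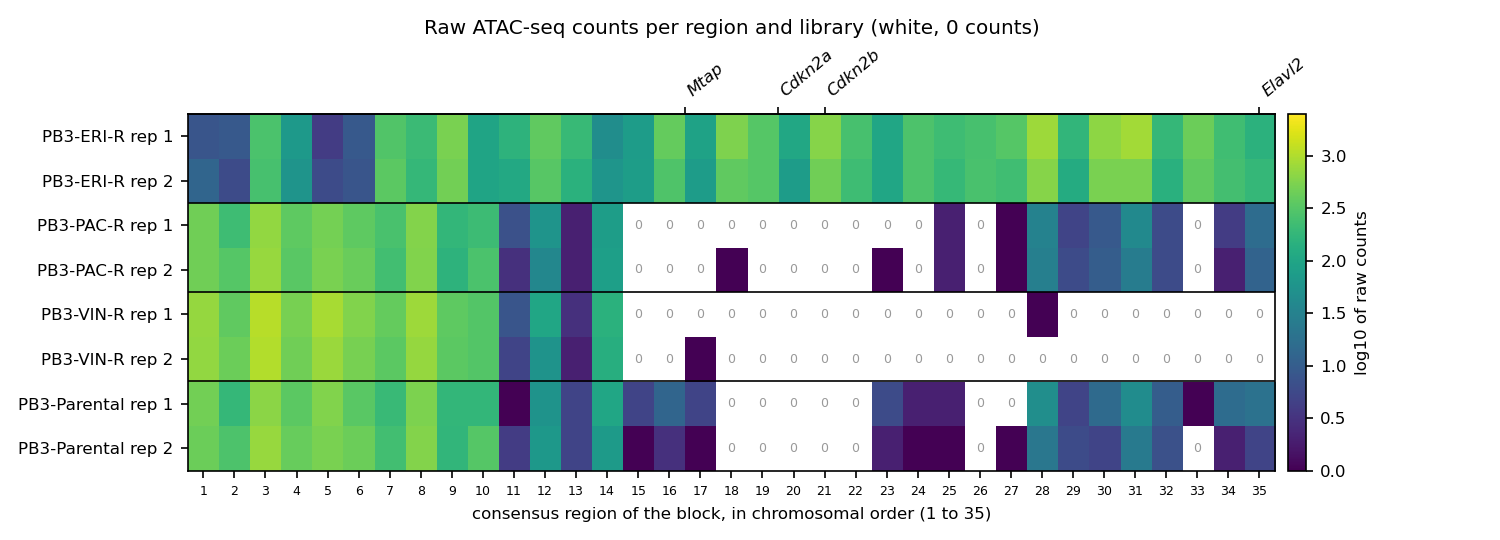
Raw counts of the 35 regions (x axis, in chromosomal order) in the 8 libraries (y axis, by line and replicate), coloured by log10 of the count, with white cells for 0. From region 15 on, PB3-VIN-R is blank but for 2 counts, PB3-PAC-R is nearly blank to region 24, and PB3-Parental is blank from region 18 to region 22.

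The stretch without counts around Cdkn2a, defined as neighbouring regions with at most 1 count over both libraries, differed in length between the lines. PB3-ERI-R had none. In PB3-PAC-R it covered 10 regions and 241.1 kb (chr4:89128152-89369216) with 2 counts in all, from before Mtap to beyond Cdkn2b. In PB3-VIN-R it spanned 21 regions and 2249 kb (chr4:89128152-91376744), also with 2 counts, from the same left edge to Elavl2. No region lay between 89528288 and the Elavl2 region, so that part of the 2249 kb was not measured. In PB3-Parental the stretch covered 5 regions and 143.0 kb (chr4:89217739-89360718) with 0 counts, and it left Mtap outside. At this limit the parental stretch lay inside that of PB3-PAC-R, which lay inside that of PB3-VIN-R. With no count allowed, the order of PB3-PAC-R and PB3-Parental turned: the stretch of PB3-PAC-R was 4 regions and 66.42 kb (chr4:89294304-89360718), inside the 143.0 kb of PB3-Parental, because a single count lay in the next region on either side.

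The edges can be placed only between regions. On the left, PB3-PAC-R and PB3-VIN-R had 161 and 287 counts in the last proximal region, 22.4 kb from the stretch. On the right, the next region with counts was 12.37 kb away in PB3-PAC-R, with 4 counts. In PB3-VIN-R it was 935.2 kb away, outside the block, with 850 counts. The parental neighbours had 6 counts on the left, 72.1 kb away, and 8 counts on the right, 2.495 kb away. The distal edge in PB3-VIN-R is thus known only to within 935.2 kb. With a limit of 0 counts per region the PB3-PAC-R stretch shrank to 4 regions and the PB3-VIN-R stretch to 10, and with a limit of 10 the parental stretch grew to 11 regions and 248.4 kb. Each stretch was the longest run of its kind in the genome of its line, and the next longest run in each of these 3 lines had 2 regions. Regions with at most 1 count numbered 93 of 57417 in PB3-PAC-R, 55 in PB3-VIN-R and 121 in PB3-Parental.

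**Figure D3:**
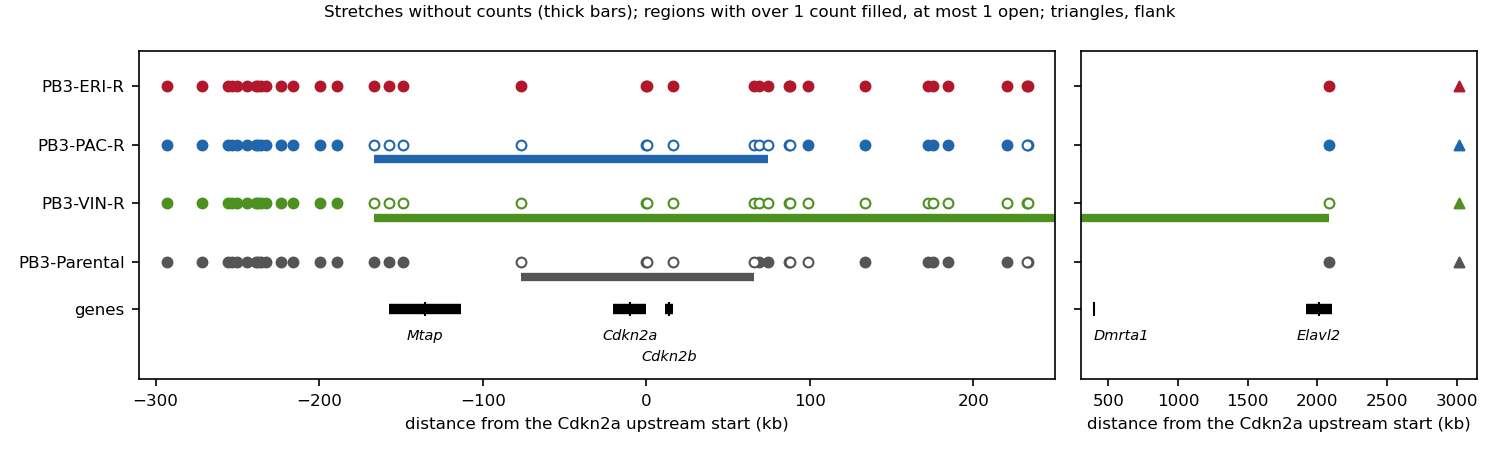
Consensus regions of the block by distance from the upstream Cdkn2a start in kb (x axis, in separate panels with different scales) for each line (y axis), filled where the line had over 1 count and open where it had at most 1; thick bars are the stretches without counts and black bars the genes. At this limit the bars nest: 143.0 kb in PB3-Parental within 241.1 kb in PB3-PAC-R within 2249 kb in PB3-VIN-R, and none in PB3-ERI-R. The absence of a PB3-ERI-R bar was fixed in advance, since the distal regions are peaks of that line alone. With no count allowed the PB3-PAC-R bar would be 66.42 kb, within that of PB3-Parental. Between position 89528288 and the Elavl2 region the PB3-VIN-R bar crosses an interval without regions.

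Within the distal part the 21 regions summed to 642 ± 20.3 CPM in PB3-ERI-R, 6.90 ± 0.366 in PB3-PAC-R, 0.0399 ± 0.00245 in PB3-VIN-R and 8.51 ± 4.31 in PB3-Parental (SD, n = 2 each). PB3-PAC-R thus had 1.07% of the PB3-ERI-R level, PB3-VIN-R 0.00621% and PB3-Parental 1.33%. The parental share was 1.81% in replicate 1 and 0.85% in replicate 2, on either side of that of PB3-PAC-R. The PB3-VIN-R share lies under the 0.0093% that 3 counts would give. This low share was fixed in advance, because PB3-VIN-R counts of at most 1 per region bounded the distal part. The smaller parts given next were bounded by the stretches of the lines in these same counts. Their shares in PB3-PAC-R and PB3-Parental are therefore a description and no test of an uneven spread. Over the 13 regions beyond the parental stretch PB3-PAC-R had 1.61% and PB3-Parental 1.80% of the PB3-ERI-R level (2.39% in replicate 1 and 1.20% in replicate 2). At the Mtap end the shares were 0% in PB3-PAC-R, which allows up to 0.193%, and 1.70% in PB3-Parental (2.74% in replicate 1 and 0.661% in replicate 2). Over the 5 regions of the parental stretch, which hold Cdkn2a and Cdkn2b, PB3-PAC-R had 1 count, and PB3-Parental had 0, which allows a share of up to 0.0571%.

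The largest residual counts of PB3-PAC-R and of PB3-Parental stood at the same pair of distal regions. The most accessible distal region in PB3-ERI-R (chr4:89427797-89428483, in Gm12610, 117 kb from Cdkn2b) had 804 and 602 counts in PB3-ERI-R, while PB3-PAC-R had 32 and 29, PB3-VIN-R 1 and 0, and PB3-Parental 48 and 22. A further region in Gm12610 (chr4:89478727-89479515) had 848 and 514 counts in PB3-ERI-R, while PB3-PAC-R had 41 and 27, both PB3-VIN-R libraries had 0, and PB3-Parental had 45 and 25. At both, PB3-PAC-R and PB3-Parental stayed well off 0 while PB3-VIN-R did not. Some other distal regions kept fewer counts, such as chr4:89469641-89470304 with 9 and 10 in PB3-PAC-R and 15 and 5 in PB3-Parental. Others open in PB3-ERI-R were empty or nearly so in all 3 other lines. The region chr4:89382464-89382883 had 256 and 267 counts in PB3-ERI-R and 0 in the 6 other libraries, and chr4:89527021-89527743 had 437 and 376 in PB3-ERI-R, 0 in PB3-PAC-R and PB3-VIN-R, and 1 and 0 in PB3-Parental.

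The parental replicates differed in the distal part. Replicate 1 had 192 counts and replicate 2 had 82, so that replicate 1 gave 70.1% of them (95% exact binomial interval 64.3 to 75.4), against 47.1% (46.0 to 48.2) in the proximal part. It had the higher count in 13 regions and replicate 2 in 2. Over all regions the replicates held 15644934 and 14173295 counts. The intervals cover counting error only and are too narrow, since chi-square per degree of freedom between the parental replicates was 6.95 over 54294 regions. The PB3-PAC-R libraries had 116 and 97 distal counts. Without replicate 1, the parental share of the PB3-ERI-R level rests on 82 counts, and both parental libraries had 0 counts in each of the 5 regions around Cdkn2a and Cdkn2b. With replicate 2 alone, the stretch with at most 1 count per region held 6 regions, because it then took in the region inside Mtap.

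A count of 0 was rare in regions of this kind elsewhere. Over 9670 regions outside positions 86500000 to 94000000 of chromosome 4 that were peaks of PB3-ERI-R alone, the median level was 21.7 CPM in PB3-ERI-R, 1.17 in PB3-PAC-R, 1.08 in PB3-VIN-R and 1.27 in PB3-Parental. In the 24 such regions of the block the medians were 25.4, 0.0497, 0.0 and 0.184 CPM in the same order of lines. Elsewhere 0.196% of these regions had no count in PB3-PAC-R, 0.062% in PB3-VIN-R and 0.279% in PB3-Parental. In the block it was 10 of 24 regions (41.7%) in PB3-PAC-R, 19 (79.2%) in PB3-VIN-R and 6 (25%) in PB3-Parental. The block was chosen for its counts of 0, so this sets its size beside the rest and tests nothing. Genome-wide, 25 regions had at least 100 counts in PB3-ERI-R but 0 in PB3-VIN-R, and 19 of them lay in the block. For PB3-PAC-R it was 10 of 29 and for PB3-Parental 6 of 33. The reverse also occurred: 18 regions with at least 100 parental counts had 0 in PB3-ERI-R, none of them in the block.

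**Figure D4:**
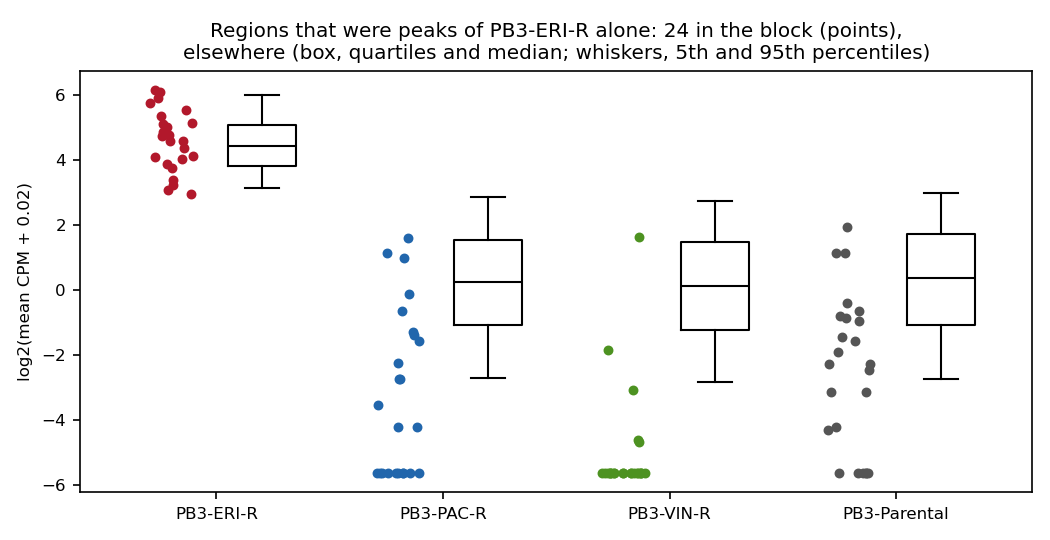
Mean CPM (y axis, log2 with 0.02 added) of regions that were peaks of PB3-ERI-R alone, for the 4 lines (x axis): points are the 24 regions of the block, boxes the median and quartiles of 9670 regions elsewhere, whiskers their 5th and 95th percentiles. The points span the box in PB3-ERI-R and lie mostly under it in the other lines, with 19 of 24 points at 0 CPM in PB3-VIN-R.

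By the test over all regions, 33 of the 35 regions of the block were called in PB3-ERI-R against PB3-Parental, 26 higher and 7 lower, with a median log2 fold change of 5.33 against 0.07 over all regions. The share called over all 57415 regions tested was 73.0%. All 21 distal regions were among the higher ones, and the proximal part held 5 higher, 7 lower and 2 that were not called. In PB3-PAC-R against PB3-Parental 0 of 35 were called by edgeR, where 0.0853% of all regions were, with 5 at an unadjusted p under 0.05 and 0 called by DESeq2. In PB3-VIN-R against PB3-Parental 7 of 35 were called and all were lower, where 0.678% of all regions were called. They were the Mtap start, 5 regions in Gm12610 and the Elavl2 region. That count was 2 when any library of PB3-ERI-R or of PB3-VIN-R was left out. PB3-VIN-R against PB3-PAC-R gave 2 lower regions, both in Gm12610, where 0.00871% of all regions, or 5, were called. That count was 0 without any library of PB3-ERI-R or PB3-VIN-R and 4 without either parental library. These counts are not support for the pattern, since the rule used the same values, and a region at 0 in both lines cannot be called.

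In the proximal part some regions had higher levels in PB3-ERI-R than in the other lines, and others lower. This was not particular to the proximal part. Against PB3-Parental, 20 flank regions were called higher and 57 lower in PB3-ERI-R, and 20338 and 21582 of all regions. The region chr4:89043967-89044381 had 4 and 6 counts in PB3-ERI-R, while PB3-PAC-R had 485 and 515, PB3-VIN-R 890 and 764, and PB3-Parental 564 and 513. By contrast chr4:89058515-89058962, in Wincr1, had 519 and 469 counts in PB3-ERI-R, while PB3-PAC-R had 179 and 159, PB3-VIN-R 362 and 353, and PB3-Parental 179 and 173. In CPM, the levels were 50.1 ± 2.63 in PB3-ERI-R, 11 ± 0.114 in PB3-PAC-R, 14.2 ± 0.622 in PB3-VIN-R and 11.1 ± 0.522 in PB3-Parental (SD, n = 2 each). The region nearest the distal part that was open in PB3-ERI-R alone, chr4:89094895-89095496, had 194 and 147 counts in PB3-ERI-R, while PB3-PAC-R had 2 and 2, PB3-VIN-R 3 and 2, and PB3-Parental 5 and 5. There PB3-VIN-R kept counts in both libraries, unlike in the distal part.

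Just inside the left border of the block, the region chr4:89001391-89001901 had 8 and 13 counts in PB3-ERI-R, while PB3-PAC-R had 466 and 454, PB3-VIN-R 731 and 710, and PB3-Parental 468 and 439. Just outside it, the region starting at 88998358 had 11 counts over both PB3-ERI-R libraries, 412 in PB3-PAC-R, 580 in PB3-VIN-R and 349 in PB3-Parental. The nearest region outside the right border, starting at 92311925, had 7, 543, 850 and 585 counts in the same order of lines. Both outside neighbours thus had few counts in PB3-ERI-R and many in the other lines, and the stretch of PB3-VIN-R had ended by the right one.

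The flanks, 2.5 Mb on each side (out to positions 86500000 and 94000000) with 99 regions, lay outside the block. Their test is not fully independent of the rule, which also read the edges of the stretches. The right edge of the PB3-VIN-R stretch is the flank region starting at 92311925. In PB3-PAC-R 0 of 99 differed from PB3-Parental by edgeR or DESeq2 (4 at an unadjusted p under 0.05), with log2 fold changes from -0.73 to 0.78. In PB3-VIN-R 1 of 99 did, a region in Slc24a2, an ion exchanger gene, which had 125 and 140 counts in PB3-VIN-R and 215 and 214 in PB3-Parental (log2 fold change -1.36 ± 0.29, SE, adjusted p = 0.0485 by edgeR). That call was lost under other scalings and when PB3-ERI-R replicate 1 or 2, PB3-VIN-R replicate 1 or 2, or PB3-Parental replicate 2 was left out. PB3-VIN-R against PB3-PAC-R gave 0 of 99 by edgeR and DESeq2, with 1 at an unadjusted p under 0.05. By edgeR the shares called over all regions were 0.0853%, 0.678% and 0.00871% in these comparisons in turn. Counts of 0 or 1 of 99 are near these shares and are no result about the flanks. Across the flanks, PB3-VIN-R against PB3-Parental ran from -1.36 to 0.78 on the log2 scale.

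PB3-ERI-R differed from PB3-Parental in 77 of the 99 flank regions, or 77.8% against the 73.0% of all regions, with 20 higher and 57 lower and a median log2 fold change of -1.30. On the right flank all 15 regions were called and 13 were lower. Largest among the flank calls was a region 203 kb from Slc24a2, with 3 and 3 counts in PB3-ERI-R, against 659 and 597 in PB3-Parental (log2 fold change -7.00 ± 0.29, SE, edgeR adjusted p = 8.14e-10). A region in Focad, a focal adhesion gene, followed with 0 and 5 counts in PB3-ERI-R, against 477 and 439 in PB3-Parental (-6.79 ± 0.45, adjusted p = 1.05e-08), and one 408 kb from Izumo3 with 1 and 4 in PB3-ERI-R, against 357 and 477 in PB3-Parental (-6.67 ± 0.45, adjusted p = 1.24e-08). On the left flank 44 of 84 regions were lower and 18 higher.

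**Figure D5:**
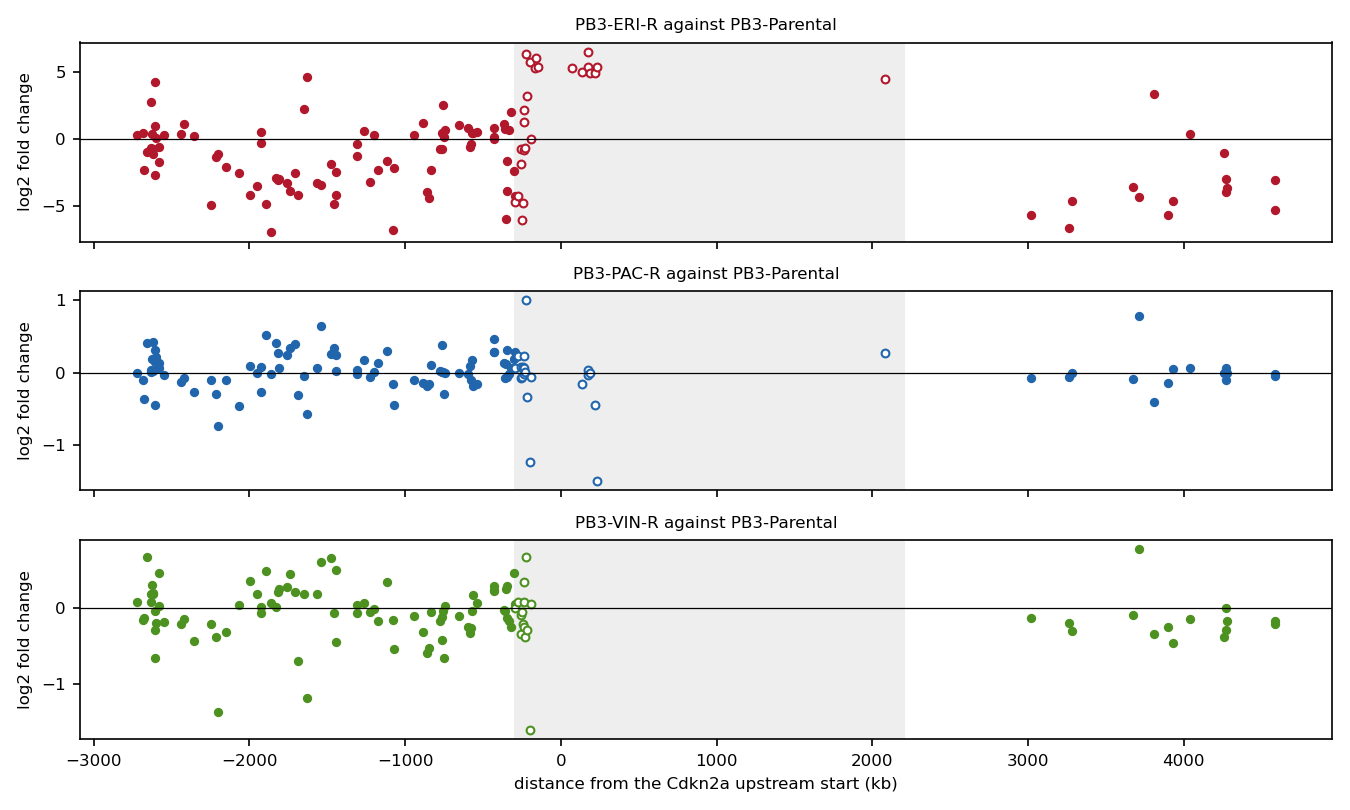
Fitted log2 fold change (y axis, scales differ between panels) against PB3-Parental for PB3-ERI-R, PB3-PAC-R and PB3-VIN-R by distance from the upstream Cdkn2a start in kb (x axis); filled points are the 99 flank regions, open points regions of the block (grey band) with over 3 counts in both lines compared. PB3-PAC-R and PB3-VIN-R lie close to 0 in the flanks, PB3-ERI-R spans -7.00 to 4.68, and the distal regions of PB3-VIN-R are absent because none had over 3 counts.

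Summed per gene over all regions nearest to it within 50 kb, Cdkn2a had 424 and 392 counts in PB3-ERI-R (40.2 ± 3.24 CPM, SD, n = 2) and Cdkn2b 865 and 682 (75.6 ± 2.41 CPM), with 0 in the other 6 libraries for both genes. Mtap averaged 116 ± 7.36 CPM in PB3-ERI-R, 6.33 ± 0.74 in PB3-PAC-R, 6.84 ± 0.563 in PB3-VIN-R and 7.83 ± 2.09 in PB3-Parental. The Mtap sum is not a measure of its start, because it takes in the last 2 proximal regions, which had counts in all lines. Elavl2 averaged 17.0 ± 4.38 CPM in PB3-ERI-R, 1.06 ± 0.163 in PB3-PAC-R, 0 in PB3-VIN-R and 0.874 ± 0.688 in PB3-Parental. All 4 measured member loci were called higher in PB3-ERI-R against PB3-Parental, where 58.5% of 14791 loci were called. By edgeR 0 of 4 were called against PB3-Parental in PB3-PAC-R (0.115% of all loci) or PB3-VIN-R (0.676%) or in PB3-VIN-R against PB3-PAC-R (0.0338%), with Elavl2 at an unadjusted p under 0.05 in the last pair of comparisons.

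No locus outside the block matched Cdkn2a and Cdkn2b fully. By Euclidean distance of log2(CPM + 0.5) over the 8 libraries, the nearest to their summed profile were Luzp2 (distance 1.86, chromosome 7), Cldn8 (2.12), Mre11a (2.21), Gabrp (2.26) and Sox11 (2.29). Luzp2 had 1120 counts in PB3-ERI-R, 3 in PB3-PAC-R, 9 in PB3-VIN-R and 3 in PB3-Parental. The other four also had counts in all 4 lines. Nearest to Elavl2 were 2310050C09Rik (1.37), 2610028H24Rik (1.70), Gm9376 (1.72), Hoxa2 (1.76) and Dnajb14 (1.77). Unlike Elavl2, all of these had counts in PB3-VIN-R, with 13 at 2310050C09Rik.

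Other genes of the pathways were read from 8 lists of 52 genes, 48 of them with regions. Against PB3-Parental in PB3-PAC-R and PB3-VIN-R, as well as for PB3-VIN-R against PB3-PAC-R, 0 of the 48 loci were called by edgeR, each with 1 at an unadjusted p under 0.05. In PB3-ERI-R against PB3-Parental 25 were called, 11 higher and 14 lower, or 52.1% against the 58.5% of all loci, with a median log2 fold change of 0.04 against -0.00. The lists as a whole therefore stood near the background of that line.

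Among the CDK inhibitors outside the block, Cdkn1b, which encodes p27, rose to 168 ± 5.34 CPM in PB3-ERI-R, against 129 ± 9.94 in PB3-Parental (SD, n = 2 each, log2 fold change 0.39 ± 0.11, SE, edgeR adjusted p = 0.0133). Cdkn1a, a p53 target gene, fell to 85.2 ± 0.766 CPM, against 104 ± 7.79 in PB3-Parental (adjusted p = 0.0241). The other Ink4 genes, Cdkn2c and Cdkn2d, each had a log2 fold change of 0.19 and did not pass the test. The counts per list given next stand beside the 58.5% of all loci called in PB3-ERI-R against PB3-Parental. Of 7 G1 kinases and cyclins 1 rose and 3 fell: the D-type cyclin gene Ccnd2 had 13.7 ± 2.89 CPM in PB3-ERI-R, against 31.7 ± 0.531 in PB3-Parental (log2 fold change -1.22 ± 0.17, adjusted p = 0.000126), with Ccnd3 at -0.53 and Cdk4, a kinase that Ink4 proteins inhibit, at -0.64. The one that rose was Cdk6, the other kinase that Ink4 proteins inhibit, at 0.35 ± 0.12 (adjusted p = 0.0281), with a median of 1.51 over the 139 regions of its 10-Mb interval of chromosome 5. Of 7 Rb and E2F genes 2 rose and 3 fell, led by Rbl1, which encodes an Rb relative, with 27.5 ± 0.982 CPM in PB3-ERI-R, against 55.2 ± 0.319 in PB3-Parental (adjusted p = 3.02e-05). In the p53 arm only Mdm2, the ubiquitin ligase that Arf inhibits, passed of 5 genes, at a log2 fold change of -0.28 ± 0.10 (adjusted p = 0.0268). The median over the 201 regions of its 10-Mb interval of chromosome 10 was -0.72, and the part of such surroundings in the Cdk6 and Mdm2 values was not tested. Trp53 itself was at 0.07 ± 0.15 (adjusted p = 0.702).

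Genes known to repress the Ink4-Arf locus gave 2 higher and 2 lower of 11, where 58.5% of all loci were called. Cbx8, a Polycomb subunit, had 330 ± 3.77 CPM in PB3-ERI-R, against 101 ± 14.7 in PB3-Parental (log2 fold change 1.71 ± 0.12, edgeR adjusted p = 5.9e-07). Its surroundings moved too: over the 552 regions at 110 to 120 Mb of chromosome 11 the median log2 fold change was 1.39, and what part this has in the Cbx8 value was not tested. Tbx2, a T-box repressor, rose by 1.27 ± 0.16 (adjusted p = 4.07e-05), with a median of 0.04 over the 321 regions of its 10-Mb interval. Bmi1 and Ezh2, core Polycomb subunits, were at 0.04 (not called) and -0.32 (adjusted p = 0.0227). Of 9 genes of methionine salvage and its neighbours, the pathway of Mtap, 4 rose and 3 fell, where 58.5% of all loci were called. Apip, the dehydratase of the pathway, had 101 ± 13.8 CPM in PB3-ERI-R, against 1.45 ± 0.0292 in PB3-Parental (log2 fold change 6.11 ± 0.22, adjusted p = 2.9e-08), with a median of 0.08 over the 228 regions of its 10-Mb interval of chromosome 2. Sms, spermine synthase, was at 2.01 ± 0.14 (adjusted p = 6.98e-07), with a median of 1.12 over the 102 regions of its 10-Mb interval of chromosome X. Enoph1, a further enzyme of the pathway, was at 2.23 ± 0.23 (adjusted p = 1.19e-05). Among paralogs, neither Elavl1 nor Elavl3 passed the test. Dmrt2 was lower in PB3-ERI-R, at 0.737 ± 0.0308 CPM against 9.14 ± 7.12 in PB3-Parental (adjusted p = 0.00212), and Dmrta2 was higher by 0.34 ± 0.11 (adjusted p = 0.021).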

How the data were processed

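Libraries were grouped by the line in the labels. Tools named in the submitters' processing notes are bcl2fastq 2.20.0.422, Bowtie2 2.2.6, cutadapt 1.9.1, deepTools, featureCounts, MACS2 2.1.1 and Picard, with the builds GRCm38 and mm10. Settings, read filters and the unit of counting (reads or fragments) were not given in the sources used here. Raw counts for every consensus region fill 8 columns of the authors' table. Each line has a deposited peak list with a fold enrichment, which is a ratio over background, and a −log10 q value per peak. A region was a peak of a line if it overlapped that list by at least 1 base.

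All regions were fitted with edgeR 4.0.16 (R 4.3.3): filterByExpr, which kept 57415 regions, TMM (factors 0.802 to 1.09), and the quasi-likelihood test with 1 term per line over 8 libraries, Benjamini-Hochberg adjusted over all regions and called under 0.05. DESeq2 1.42.0 was an alternative. The common coefficient of variation was 0.161, and chi-square per degree of freedom between replicates ran from 5.06 to 10.6, over the counting error. Regions within 50 kb of the nearest of 21900 protein-coding RefSeq genes were summed into 14791 loci, fitted alike. A locus value is accessibility, not expression. The fit was tested on simulated data.

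The members and the gene lists were chosen with earlier results of these data known. Named were all members and block regions, up to 3 loci per list with the smallest adjusted p, up to 3 flank calls per comparison with the largest change, and the 5 loci most alike. Cdkn2c, Cdk6, Bmi1, Ezh2 and Trp53 were added after their values were seen.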

Additional observations from a re-analysis of the deposited data

How the results depend on the processing

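In all, 21 results were recomputed under 169 alternatives, of which 142 kept their direction and their side of the threshold, or their count within 1.5 times, and 0 turned the sign. The cause of the changes listed here was not tested. In the block, PB3-VIN-R against PB3-Parental gave 2 to 8 called regions when a library was left out, and PB3-VIN-R against PB3-PAC-R gave 0 to 4, or 4 by DESeq2. In the flanks, PB3-VIN-R against PB3-Parental gave 0 with DESeq2's size factors in edgeR, 0 with library size alone, and 0 to 1 when a library was left out. Scaling by library size alone moved the median of all regions in PB3-ERI-R against PB3-Parental to -0.29, against 0.07 with TMM, and gave 34 called regions in the block (26 higher, 8 lower) and 74 in the flanks (12 higher, 62 lower). The stretch around Cdkn2a at a limit of 0 counts held 4 regions in PB3-PAC-R; that of PB3-VIN-R held 10. At a limit of 10 counts it held 11 in PB3-Parental. The parental median in regions open in PB3-ERI-R alone was 1.43 CPM over chromosome 4 only. The folds and shares given against each parental library alone were chosen after seeing the data. With log2(CPM + 1), 3 of the 5 loci most like Elavl2 were shared.

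The fit with a replicate block gave 1 region of the block for PB3-PAC-R against PB3-Parental. Over all regions it called 636 there, against 49 in the main fit. For PB3-VIN-R against PB3-PAC-R it gave 6, with 226 over all regions, against 5. For PB3-VIN-R against PB3-Parental it gave 2 flank regions, with 2717 over all regions, against 389. In that comparison it also gave 1 listed locus, with 509 of all loci called, against 100. The labels do not say that a number pairs libraries, and 2 numbers are too few to tell: same-numbered libraries deviated together with r of 0.105 for PB3-ERI-R and PB3-Parental and 0.425 to 0.501 for the other pairs. Depth limits the low values: 3 counts, over the 2 libraries of a line, are 0.0148% of the PB3-ERI-R level of the distal part in PB3-Parental.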
